A study of Mus musculus with 15 samples.

Results

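The keratin genes of the mouse were examined in chromatin maps of EL4 cells, as the protein-coding genes whose symbols begin with Krt on chromosomes 11, 15 and 16, with the genes of keratin-associated proteins (Krtap) included. The RefSeq gene table of GRCm38.p6 held 100 such genes among 21631 protein-coding genes on chromosomes 1 to 19 and X. The cluster at chr11:99232761-100269951 held 27 keratins, of type I, and 23 keratin-associated genes. The cluster at chr15:101348315-102032026 held 26 keratins, the type II genes and Krt18, a type I keratin that lies beside them. The cluster at chr16:88610709-89571183 held 24 keratin-associated genes. Each gene was given a window of its span plus 2 kb on each side, and a window was called touched by a peak set when it shared at least 1 bp with a called peak.

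EL4 is a T lymphocyte lymphoma cell line of the C57BL/6N strain, and the labels name no treatment. The data are lists of called peaks from ChIP-seq of 5 histone H3 modifications, H3K4me3, H3K9ac, H3K27ac, H3K27me3 and H3K36me2, and from ATAC-seq, which cuts accessible chromatin, with 2 replicates each. All 12 lists come from this cell line, so no comparison with an epithelial cell could be made. In its accounts of ATAC-seq and of how peaks were merged, the paper speaks of technical replicates, so the spread between replicates may be technical, and the members of a gene set are not replicates of each other. With 2 replicates no test across samples was made, and counts of keratin genes are read beside the share of all protein-coding genes touched under the same rule.

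Keratins form the intermediate filaments of epithelial cells, and each filament is built from pairs of an acidic type I and a basic type II protein. Simple epithelia, the layers of the epidermis and the compartments of the hair follicle use different pairs, and keratin-associated proteins embed and cross-link the keratins of the hair shaft. Lymphocytes build their cytoplasmic filaments mainly from vimentin. H3K4me3, H3K9ac and H3K27ac mark active promoters, and H3K27ac also marks active enhancers, whereas H3K27me3 is deposited by Polycomb repressive complex 2 at silent genes and H3K36me2 covers broad regions within and between genes.

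RefSeq promoter windows, 250 bases before to 50 bases after the start site on GRCm38.p6, were at hand for 80 of the 100 genes. Of the windows below, those of Krt8 and Krt18 are shown because the members of the pair differ in H3K27me3, as do Krt5 and Krt14. Krt8 (chr15:102004293-102004592, minus strand) and Krt18 (chr15:102027966-102028265, plus strand) are neighbors whose proteins pair in simple epithelia, Krt5 (chr15:101712856-101713155, minus strand) and Krt14 (chr11:100205981-100206280, minus strand) encode the pair of basal keratinocytes, and Krt28 (chr11:99374854-99375153, minus strand) is the inner root sheath keratin with peaks of all active marks inside it. Krtap3-1 (chr11:99566581-99566880, minus strand) and Krtap8-1 (chr16:89487903-89488202, minus strand) stand for the keratin-associated genes of 2 chromosomes. Krt8, Krt18, Krt5 and Krt14 belong to the list of reference keratins. Only the windows of Krt5 and Krt14 were set to be shown, for comparison, and the others were picked after their values were seen. Capitals mark CG dinucleotides and the motif TATAAA or its reverse complement TTTATA.
Krt8: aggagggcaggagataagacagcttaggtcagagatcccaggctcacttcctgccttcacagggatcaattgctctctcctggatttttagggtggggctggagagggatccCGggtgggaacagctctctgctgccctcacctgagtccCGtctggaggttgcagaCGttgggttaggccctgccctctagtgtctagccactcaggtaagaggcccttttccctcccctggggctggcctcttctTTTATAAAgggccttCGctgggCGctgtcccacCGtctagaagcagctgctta
Krt18: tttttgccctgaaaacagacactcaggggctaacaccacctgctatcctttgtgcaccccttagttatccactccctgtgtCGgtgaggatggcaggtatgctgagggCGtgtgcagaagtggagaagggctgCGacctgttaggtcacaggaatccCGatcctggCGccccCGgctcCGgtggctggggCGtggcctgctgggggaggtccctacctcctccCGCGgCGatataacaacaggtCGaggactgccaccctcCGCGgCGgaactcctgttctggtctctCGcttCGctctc
Krt5: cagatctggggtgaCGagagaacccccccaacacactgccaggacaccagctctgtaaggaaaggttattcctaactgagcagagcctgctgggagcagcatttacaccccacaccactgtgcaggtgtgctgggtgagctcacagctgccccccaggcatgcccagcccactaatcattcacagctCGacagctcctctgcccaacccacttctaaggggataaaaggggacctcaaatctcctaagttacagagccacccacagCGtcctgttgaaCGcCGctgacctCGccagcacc
Krt14: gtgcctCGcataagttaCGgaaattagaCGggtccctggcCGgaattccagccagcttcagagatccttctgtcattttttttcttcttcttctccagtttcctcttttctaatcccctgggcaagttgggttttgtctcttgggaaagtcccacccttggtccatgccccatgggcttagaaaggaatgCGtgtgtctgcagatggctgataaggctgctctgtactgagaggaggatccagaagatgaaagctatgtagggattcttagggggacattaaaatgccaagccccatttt
Krt28: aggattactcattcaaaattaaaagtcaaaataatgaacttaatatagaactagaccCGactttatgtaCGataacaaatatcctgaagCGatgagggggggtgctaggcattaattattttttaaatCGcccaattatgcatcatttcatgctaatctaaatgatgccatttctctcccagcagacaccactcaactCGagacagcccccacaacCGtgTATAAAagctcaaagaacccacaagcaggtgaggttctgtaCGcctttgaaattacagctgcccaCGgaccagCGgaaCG
Krtap3-1: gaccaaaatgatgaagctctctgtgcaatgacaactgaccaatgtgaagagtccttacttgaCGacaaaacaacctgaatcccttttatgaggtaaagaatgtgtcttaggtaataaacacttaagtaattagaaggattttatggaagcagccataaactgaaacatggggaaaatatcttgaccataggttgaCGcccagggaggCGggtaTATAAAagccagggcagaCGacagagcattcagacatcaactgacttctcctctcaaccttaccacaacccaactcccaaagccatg
Krtap8-1: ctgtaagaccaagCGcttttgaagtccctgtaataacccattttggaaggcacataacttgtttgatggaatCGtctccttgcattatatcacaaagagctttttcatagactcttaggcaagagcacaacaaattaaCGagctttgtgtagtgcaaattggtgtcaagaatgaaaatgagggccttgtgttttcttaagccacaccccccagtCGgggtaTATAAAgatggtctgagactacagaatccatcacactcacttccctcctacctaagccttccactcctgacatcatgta

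The printed windows differ in their CG content. The Krt18 window held 17 CG dinucleotides and the Krt28 window held 10. Krt5 and Krt8 held 6 each, Krt14 held 5, and Krtap3-1 and Krtap8-1 held 4 each. TATAAA was found in the windows of Krt8, Krt28, Krtap3-1 and Krtap8-1 and not in those of Krt18, Krt5 and Krt14. The start site used for Krt14, at chr11:100206030, lies inside its gene model, which runs to chr11:100207510 and is read from the minus strand. Those of Krt10, Krt36 and Krt78 also lie well inside their gene models. The windows of these genes may therefore not hold the promoter at the outer edge of the gene model.

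H3K27me3 was the mark found over most keratin genes outside chromosome 16, whereas the active marks, H3K36me2 and accessible sites were found at few. H3K27me3 touched 62 of the 100 windows in replicate 1 and 64 in replicate 2, and 58 in both, against 21.5%, 21.4% and 18.0% of all protein-coding genes. A further 10 windows were touched in a single replicate, and 32 in neither. H3K4me3 touched the same 4 windows in both replicates, against 52.2% of all genes in replicate 1, 52.0% in replicate 2 and 51.8% in both. H3K9ac touched 3, against 50.9%, 51.0% and 50.6%, and H3K27ac touched 4, against 52.0%, 52.1% and 51.6%. The 5 genes with at least 1 of the 3 active marks in both replicates were Krt222, Krt27, Krt28, Krt78 and Krt8, against 53.2% of all genes. H3K36me2 touched 4 windows in replicate 1 and 2 in replicate 2, with 2 in both, against 50.1%, 50.3% and 46.2% of all genes. ATAC-seq peaks touched 2 windows in both replicates, against 48.4%, 49.7% and 47.2%. Keratin-associated genes are short, and short genes had fewer of these peaks. Of other genes in the length ranges of the chromosome 11 and 16 keratin-associated sets, H3K4me3 touched 9.75% and 8.91% in both replicates. H3K9ac, H3K27ac, H3K36me2 and ATAC-seq touched 7.31% to 9.84%. In the ranges of the type I and chromosome 15 sets, H3K4me3 touched 49.9% and 57.2%. It touched 4 of the 53 keratins and 0 of the 47 keratin-associated genes.

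**Figure D1:**
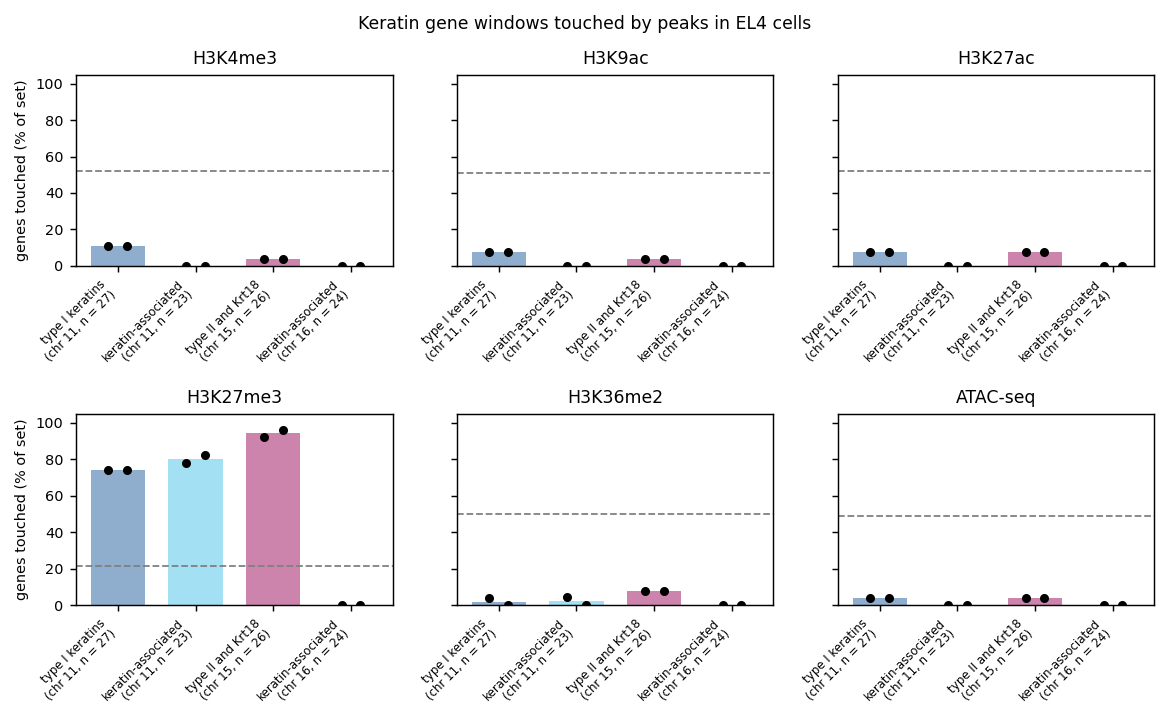
Percent of the genes of each keratin set whose window was touched by a peak, with 1 panel per peak set. Bars are means of 2 replicates, points are the replicates, and the dashed line is the mean share of all protein-coding genes, of any length. H3K27me3 stands above that line in 3 sets and at 0 in the chromosome 16 set. Every other panel stays at or under 11.1%.

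The sets differed in how far H3K27me3 reached. On chromosome 15, 24 of the 26 windows were touched in replicate 1 and 25 in replicate 2, a mean of 94.2% ± 2.72 (SD, n = 2). The keratin-associated genes of chromosome 11 followed with 18 and 19 of 23 windows, 80.4% ± 3.07, and the type I keratins with 20 of 27 in each replicate, 74.1%. None of the 24 keratin-associated genes of chromosome 16 was touched in either replicate. Gene length enters such shares, since keratin-associated genes are short, so other genes in the same range of lengths were counted too. Of these, 13.2% were touched by H3K27me3 in both replicates in the range of the chromosome 15 set, 11.3% in that of the type I keratins, and 18.3% in that of either keratin-associated set. The chromosome 15 share lay above that of both chromosome 11 sets in each replicate. This order turned round when only intervals with their midpoint inside the window were counted, which left 4 of 26 genes on chromosome 15, 8 of 27 type I keratins and 6 of 23 keratin-associated genes in both replicates, as long intervals often have their midpoint outside a window. Those sets were close to each other, with 66.7% of the type I keratins and 69.6% of the keratin-associated genes touched in both replicates.

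The covered share of the windows gave the same order between chromosomes. H3K27me3 covered 74.5% and 77.0% of the base pairs in the chromosome 15 windows, in replicates 1 and 2. It covered 54.5% and 55.3% of the type I windows and 51.1% and 59.9% of the keratin-associated windows on chromosome 11, which overlap within the spread between replicates. Of the 100 windows, 15 were covered over their whole length in both replicates, against 0.522% of all protein-coding genes, and 40 over at least 50%, against 5.65%. The 15 were 12 genes of chromosome 15, the type I keratin Krt39 and the keratin-associated genes Krtap3-3 and Krtap3-1. Within 1 set the values ran from 0 to 100% on both chromosomes.

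**Figure D2:**
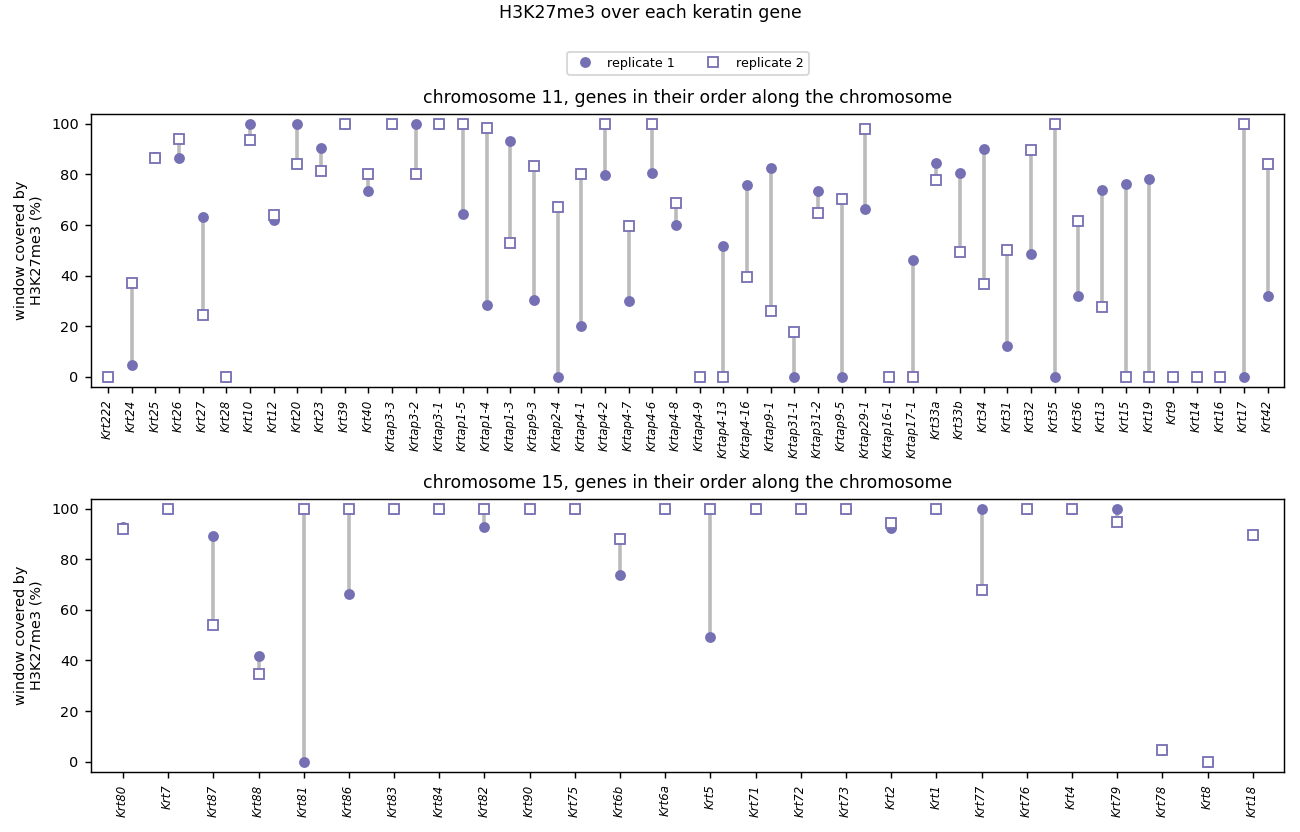
Percent of each gene window covered by H3K27me3 in replicate 1 (filled circles) and replicate 2 (open squares), with genes in chromosome order and a grey line joining the replicates. Chromosome 15 genes mostly sit at 100% in both replicates until Krt78 and Krt8, at 4.76% and 0, and chromosome 11 genes show wide gaps between replicates; the 24 chromosome 16 genes, all at 0, are not drawn.

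On chromosome 15, H3K27me3 formed long intervals over most of the type II genes. It covered 82.0% and 80.1% of the cluster, against 21.4% and 23.4% of the chromosome, and 75.4% of the cluster was covered in both replicates. The hair keratins Krt83 and Krt84, Krt75 of the companion layer of the hair follicle, Krt90, Krt71, Krt72 and Krt73 of the inner root sheath, Krt1 of the suprabasal epidermis, Krt4 of internal stratified epithelia, Krt6a of wounded epidermis, Krt7 of ducts and Krt76 were covered over 100% of their windows in both replicates. The longest interval of replicate 1, at chr15:101809601-101878999, was 69399 bp long, ranked 13 among 46015 intervals and held Krt2, Krt1 and Krt77. The longest of replicate 2, at chr15:101518001-101590199, was 72199 bp long, ranked 21 among 38014 and held Krt84, Krt82, Krt90 and Krt75. The median interval in the cluster was 41799 bp in replicate 1 and 22999 bp in replicate 2, against 4199 and 5799 bp in the whole lists.

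Several genes of chromosome 15 departed from this pattern or differed between replicates. Krt81, a hair keratin, was at 0 in replicate 1 and at 100% in replicate 2. Krt5, the basal keratin, was at 49.2% and 100%. Krt88 was at 41.9% and 34.6%. A break in the intervals between Krt87 and Krt86 covered a different stretch in each replicate, and the lists hold no score by which a weak call could be told from a strong one. Krt8 was at 0 in both replicates, and Krt78, whose gene model of 50624 bp lies next to it, was at 4.76% in both.

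**Figure D3:**
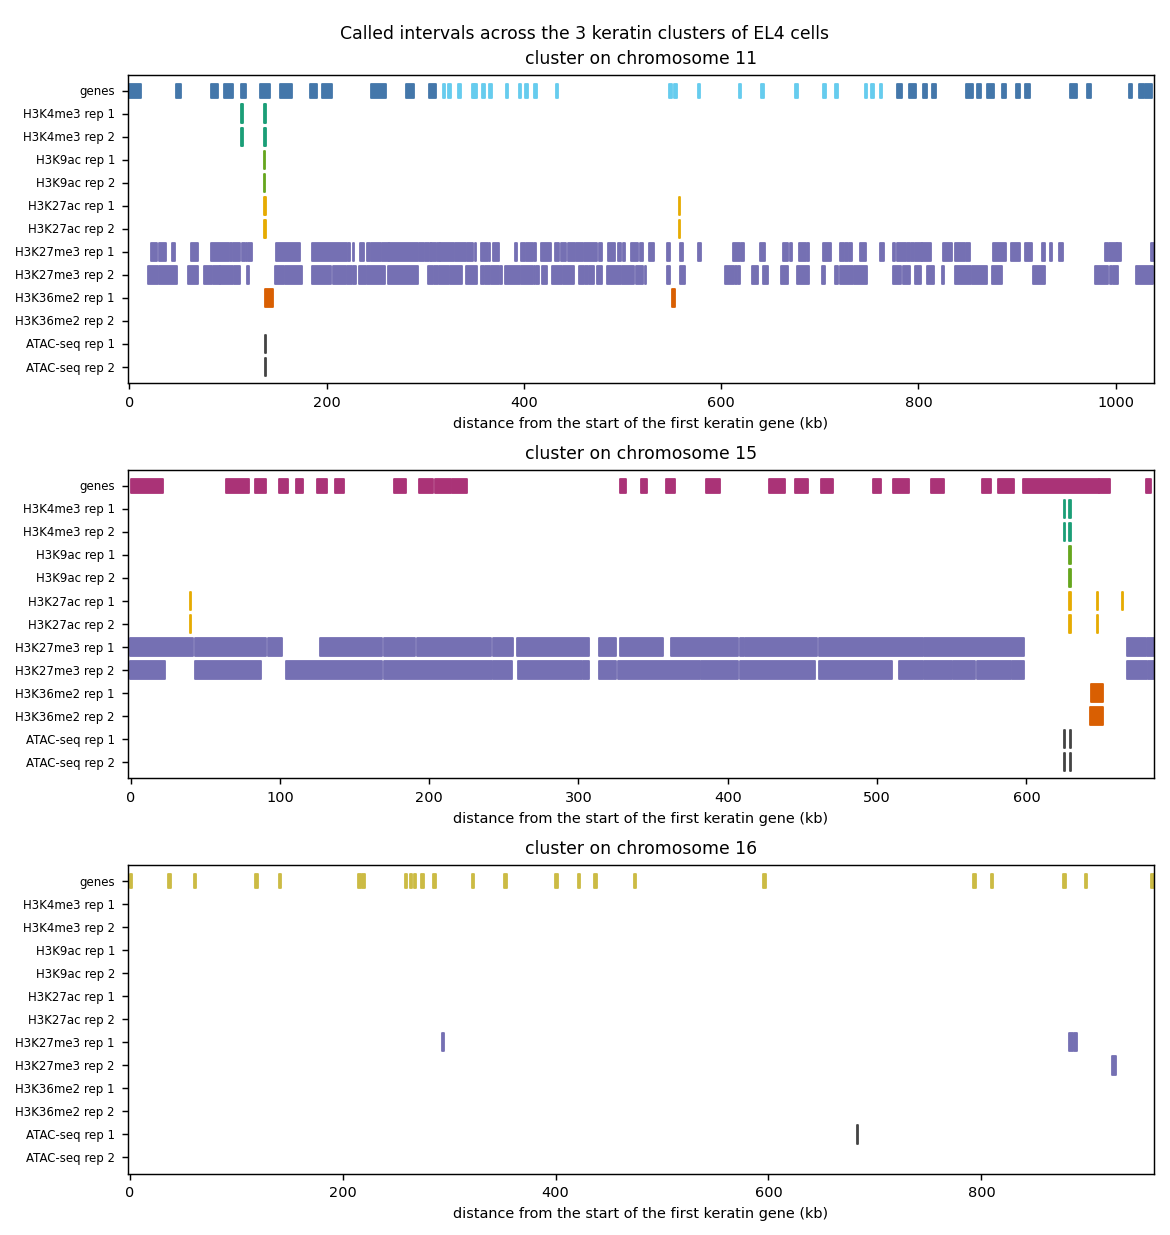
Called intervals along the 3 clusters, with the distance from the start of the first keratin gene in kb on the x axis, the genes in the top row (dark blue type I, light blue and yellow keratin-associated, magenta chromosome 15) and 1 row per peak list; very narrow features are drawn with a least width so that they can be seen. H3K27me3 covers 82.0% and 80.1% of the chromosome 15 cluster, 49.9% and 55.7% of the chromosome 11 cluster in shorter intervals, and 0.999% and 0.437% of the chromosome 16 cluster.

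On chromosome 11, H3K27me3 was broken into shorter intervals that matched less well between replicates. It covered 49.9% and 55.7% of the cluster in 83 and 67 intervals, against 17.5% and 20.1% of the chromosome. The Jaccard index, the bases covered in both replicates over those covered in either, was 0.546 in this cluster, whereas it was 0.870 for the chromosome 15 cluster and 0.498 over all chromosomes. The longest intervals were 35399 bp at chr11:99417801-99453199 in replicate 1, over Krt12 of the cornea and Krt20 of the gut, and 29999 bp at chr11:99495001-99524999 in replicate 2, over Krt39.

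Coverage of the type I keratins changed from gene to gene. Krt39 was at 100% in both replicates, Krt10 of the suprabasal epidermis at 100% and 93.8%, Krt20 at 100% and 84.0%, and Krt23 at 90.6% and 81.2%. Krt12, between Krt10 and Krt20, was at 62.2% and 64.0%, and Krt28, next to Krt10, was at 0 in both replicates. Toward the other end the replicates parted. Krt15 was at 76.2% and 0 and Krt19 of simple epithelia at 78.2% and 0, whereas the hair keratin Krt35 and the wound keratin Krt17 were at 0 in replicate 1 and 100% in replicate 2. Krt13 of internal stratified epithelia was at 73.7% and 27.6%. Krt9, Krt14 and Krt16, keratins of the sole, the basal layer and wounded epidermis, were at 0 in both replicates, and no peak of any of the 6 sets touched their windows.

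Among the keratin-associated genes of chromosome 11, Krtap3-3 and Krtap3-1 were at 100% in both replicates and Krtap4-6 was at 80.5% and 100%. Krtap4-9 and Krtap16-1 were at 0 in both. Krtap4-13 and Krtap17-1 were touched only in replicate 1, and Krtap2-4, Krtap31-1 and Krtap9-5 only in replicate 2. Of the 15 other protein-coding genes inside this cluster, most of them short gene models without a name, 6 were touched by H3K27me3 in replicate 1, 9 in replicate 2 and 5 in both, against 21.5%, 21.4% and 18.0% of all genes. None of the 15 was touched by any other set. Of other genes in the length range of the chromosome 11 keratin-associated genes, each of those sets touched only 8.70% to 9.84% in both replicates.

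The chromosome 16 cluster stood apart from the other 2. All 24 keratin-associated genes there were free of every peak of the 6 sets in both replicates, against 20.6% of all protein-coding genes without any peak and 57.0% of the other genes in the same range of lengths. Of the keratin-associated genes on chromosome 11 only Krtap16-1 had no peak, against 56.3% of other genes of their lengths. The nearest H3K4me3 peaks on either side of the chromosome 16 cluster were 2.01 Mb apart, and this gap ranked 9 among 549 on the chromosome and held 61 protein-coding genes. The gap without H3K36me2 was 2.06 Mb and ranked 10 among 1425. Chromosome 16 as a whole was also poor in the broad marks. H3K27me3 covered 5.02% and 5.95% of it in replicates 1 and 2, against 9.86% and 11.3% over all chromosomes. H3K36me2 covered 6.44% and 6.15% of it, against 11.6% and 11.5%. H3K27me3 gave 3 intervals between the genes in replicate 1 and 1 in replicate 2, which did not overlap, and a lone ATAC-seq peak at chr16:89293794-89294174 was called in replicate 1. None of the 34 other protein-coding genes inside the cluster was touched by any set.

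The authors kept uniquely aligned reads, and near copies of a gene can lose such reads. At least 1 stretch of 38 bases of the promoter window was found in another, non-overlapping promoter window for 5 of 23 keratin-associated genes on chromosome 16, for 7 of 21 on chromosome 11 and for none of the 20 type I and 16 chromosome 15 keratins, against 10.4% of all promoters. Of the 7 on chromosome 11, the windows of Krtap4-6, Krtap4-8 and Krtap31-2 were touched by H3K27me3 in both replicates, those of Krtap4-13, Krtap2-4 and Krtap31-1 in a single replicate and that of Krtap4-9 in neither. The part of copied sequence in the empty windows was not tested.

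The 5 keratin genes with an active mark differed in where the peaks lay. Krt28 and Krt78 held the full set of H3K4me3, H3K9ac, H3K27ac and ATAC-seq peaks inside their spans. Krt27 held H3K4me3 alone. Krt8 and Krt222 were touched only in their flanks, and Krt8 by H3K27ac alone. The peaks at Krt222 lie over Smarce1, a chromatin remodeling subunit gene 1.74 kb away. They cover the edge of Smarce1 that faces Krt222, as does the H3K4me3 peak at chr11:99229343-99231545 in replicate 1. Smarce1 was itself touched by all 3 active marks, so the call at Krt222 is shared with this neighbor. None of the 80 promoter windows was touched by H3K4me3, H3K9ac, H3K27ac or ATAC-seq in either replicate, against 43.8%, 42.9%, 42.9% and 37.8% of all promoters in both replicates. Where the promoter table gave a start site, the active peaks at keratin genes lay away from that site. A gene model can reach past it, as that of Krt78 does.

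Krt28, a type I keratin of the inner root sheath, lay in a break of 23.2 kb in the H3K27me3 of both replicates, between Krt27 and Krt10. In replicate 1 its H3K4me3 peaks were at chr11:99369098-99370081 and chr11:99370229-99370832, and an accessible site at chr11:99369828-99370309 spanned the space between them. The middle of that site lay 4835 bp downstream of the start site in replicate 1 and 4810 bp in replicate 2. H3K27ac formed a pair of peaks at the same place, and H3K9ac a single one of 461 and 705 bp. H3K36me2 at chr11:99370601-99378199 covered 45.4% of the window in replicate 1 and 0 in replicate 2.

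Krt27, the neighboring inner root sheath keratin, carried a pair of short H3K4me3 peaks in each replicate near the far end of the gene, with middles 4827 and 4360 bp past the start site in replicate 1 and 4853 and 4295 bp in replicate 2. No acetylation and no accessible site touched its window. The second of these peaks, at chr11:99346633-99346884 in replicate 1, touched an H3K27me3 interval of replicate 1. H3K27me3 covered 63.1% of the Krt27 window in replicate 1 and 24.6% in replicate 2.

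Krt78 and Krt8 lay in a break of 69.4 kb in the H3K27me3 of chromosome 15. Inside the Krt78 span, peaks of H3K4me3 at chr15:101977027-101977922, of H3K9ac and of H3K27ac met an accessible site at chr15:101977292-101977663 in replicate 1, whose middle was at -23190 bp from the Krt78 start site, upstream of it. A second accessible site was at -19464 bp in replicate 1 and -19517 bp in replicate 2, with H3K4me3 and without acetylation. Most of the Krt78 gene model lies upstream of the start site of the promoter table, so whether these peaks belong to Krt78 is not given by the annotation. Krt8, which pairs with Krt18 in simple epithelia, had no H3K4me3, H3K9ac or ATAC-seq peak. The flank of its window was touched by an H3K27ac peak at chr15:101995371-101995712 in replicate 1 and chr15:101995342-101995857 in replicate 2, 8801 and 8743 bp past the Krt8 start site and inside the Krt78 span. This peak also lay near the upstream edge of the Krt78 gene model, at chr15:101996624.

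**Figure D4:**
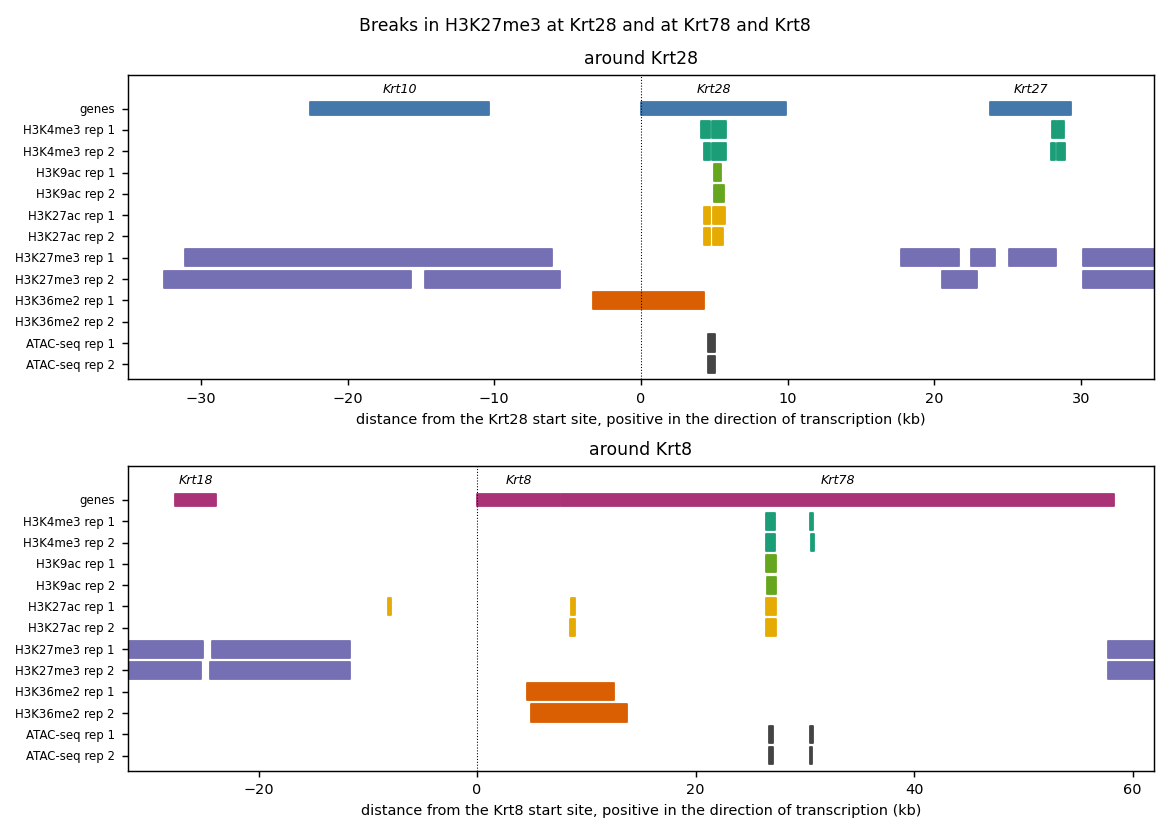
Called intervals around Krt28 (top) and around Krt8 and Krt78 (bottom), with the distance from the start site of Krt28 or Krt8 in kb, positive in the direction of transcription, the genes in the top row and 1 row per peak list. H3K27me3 stops on both sides of the peaks of Krt28, and the H3K36me2 interval at Krt8 and Krt78 is called in both replicates while that at Krt28 is called in replicate 1 only.

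H3K36me2 was called at 3 places in the clusters, none of them on chromosome 16. At chr15:101990601-101999799, taking both replicates together, it covered 43.8% and 40.3% of the Krt8 window and 12.5% and 14.7% of the Krt78 window, and the H3K27ac peak named above lay in it. The Krt28 interval and an interval of 2999 bp at chr11:99783001-99785999, beside Krtap4-9, were called in replicate 1 only. An H3K27ac peak at chr11:99789814-99790129 in replicate 1, also called in replicate 2, lay near Krtap4-9 and outside every keratin window. Another, at chr15:101387880-101388304 in replicate 1 and also called in replicate 2, was upstream of Krt7, inside an H3K27me3 interval of replicate 1 and in a break of replicate 2.

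No place with both H3K27me3 and H3K36me2 was found in the keratin windows or anywhere in the 3 clusters, with the replicates of each mark merged. The same intersection gave 404 places over all chromosomes, of which 19 were on chromosome 11, 71 on chromosome 15 and 1 on chromosome 16. Such places are few, and the shares of all genes holding one, or touched by both marks, were not counted. Their absence here is therefore not read as a trait of keratin genes. The place nearest to a cluster was chr15:102069601-102072399, 37.6 kb past the chromosome 15 cluster. Within the clusters the marks came closest beside Krtap4-9, at 1.80 kb, and beside Krt28, at 2.20 kb, whereas 16.2 kb lay between them at Krt8. Only the window of Krt78 was touched by both marks, with H3K27me3 at its far end and no base in common.

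The members of keratin pairs did not always share their H3K27me3. Krt1 and Krt10, the pair of the upper epidermis, were both covered, at 100% in both replicates for Krt1 and at 100% and 93.8% for Krt10. Krt4 and Krt13 were both touched, at 100% in both replicates and at 73.7% and 27.6%. In the other pairs the sides differed. Krt18 was at 89.7% in both replicates where Krt8 was at 0, Krt5 was at 49.2% and 100% where Krt14 was at 0, and Krt6a was at 100% in both where Krt16 was at 0. Krt7 was at 100% in both replicates, and its partner Krt19 was at 78.2% in replicate 1 and 0 in replicate 2. In 5 of these 6 pairs the type II gene lies on chromosome 15 and the type I gene on chromosome 11, and Krt8 and Krt18 both lie on chromosome 15.

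By the tissue in which they are known to be used, H3K27me3 in both replicates touched 11 of 13 hair keratins, 6 of 7 inner root sheath keratins, 4 of 6 simple epithelial keratins (Krt7, Krt18, Krt20 and Krt23) and 6 of 11 epidermal keratins (Krt1, Krt2, Krt5, Krt6a, Krt6b and Krt10). The share of all protein-coding genes was 18.0%. Each list held genes of both chromosomes, and no list was compared with another. H3K4me3 touched Krt27 and Krt28, which are neighbors, among the 7 inner root sheath keratins, against 51.8% of all genes. It touched none of the hair, epidermal or simple epithelial keratins. Krt222 and Krt78, the other keratin genes it touched, are in none of these lists.

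Of the 3 nearest genes on each side of the chromosome 11 and chromosome 15 clusters, 2 had the active marks in both replicates. The shares of all protein-coding genes were 51.8% for H3K4me3, 50.6% for H3K9ac and 51.6% for H3K27ac, so these few neighbors are not set apart from other genes. Smarce1 and Ccr7, a chemokine receptor gene of T cells, 1.74 and 77.7 kb before the chromosome 11 cluster, were touched by H3K4me3, H3K9ac, H3K27ac, H3K36me2 and ATAC-seq peaks in both replicates and by no H3K27me3. Eif1, a translation initiation factor gene 50.0 kb after it, had the active marks and an accessible site. Hap1 had these and H3K27me3 over 23.3% and 27.7% of its window, whereas Tns4 had H3K36me2 in replicate 1 only and Gast had no peak. Nr4a1, an early response gene of T cells, and Atg101 before the chromosome 15 cluster, and Spryd3 after it, had the active marks, H3K36me2 and accessible sites. Eif4b, 41.7 kb after it, was touched by all 6 sets, with 1.56% and 2.29% of its window under H3K27me3. Smim41 and Tns2 had H3K36me2 alone. Beside the chromosome 16 cluster the claudin genes Cldn8 and Cldn17 had no peak, and Tiam1, 216 kb away, had the active marks, H3K36me2 and accessible sites.

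Promoter windows of the keratin genes were poor in CG dinucleotides. The median was 4.5 per window in the type I keratins, 2 and 3 in the keratin-associated genes of chromosomes 11 and 16, and 6 on chromosome 15, against 14 over 17274 promoters. Only Krt7 with 21, Krt18 with 17, Krt72 with 11 and Krt28 with 10 reached 10 CG dinucleotides, which is 5% of the windows, against 57.8% of all promoters. TATAAA, searched on both strands, was in 95.2% of the chromosome 11 and 69.6% of the chromosome 16 keratin-associated windows, in 65% of the type I windows and in 37.5% of the chromosome 15 windows, against 13.4% of all promoters. H3K27me3 touched 34 of the 80 promoter windows in both replicates, against 5.79% of all promoters. These were 14 of 16 on chromosome 15, 9 of 20 type I, 11 of 21 keratin-associated on chromosome 11 and 0 of 23 on chromosome 16. Members whose gene window had H3K27me3 in both replicates had a median of 3.5 CG dinucleotides (n = 46) and the others a median of 3 (n = 34). Over all protein-coding genes the medians were 6 with H3K27me3 (n = 3000) and 15 without (n = 14274).

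**Figure D5:**
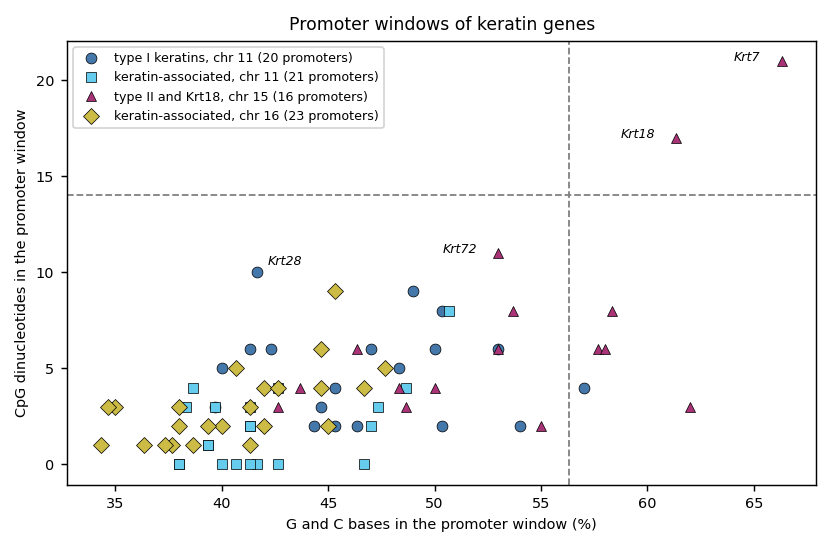
CG dinucleotides against the percent of G and C bases in the 300-base promoter windows of 80 keratin genes, by set, with dashed lines at the medians of all promoters. All windows but those of Krt7 and Krt18 lie under the median of 14 CG dinucleotides.

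Genes that act on or with keratins were counted by the same rule. Of 14 transcription factors that act on keratin genes, 8 were touched by H3K4me3 in both replicates, near the 51.8% of all genes. These were Grhl1, Grhl2, Grhl3, Foxn1, Dlx3 and Tfap2a, together with Gata3 and Lef1, which T cells also use. H3K9ac and H3K27ac each touched 7 in both replicates, all of those named but Grhl3, against 50.6% and 51.6% of all genes. H3K27me3 touched 4 of the 14 in both replicates, against 18.0% of all genes. These were Trp63, the regulator of stratified epithelia, Hoxc13, a regulator of hair keratins, Msx2 and Lef1. It covered 100% of the Hoxc13 window in both replicates but only 2.97% and 3.64% of that of Lef1. Klf4 and Klf5 had no peak of any set, against 20.6% of all genes. Of 11 genes of desmosomes and keratin anchoring, 3 had H3K4me3 in both replicates (Plec, Dst and Perp), against 51.8% of all genes. H3K36me2 touched 7 in both, against 46.2%, and H3K27me3 touched 4 in both (Dsp, Pkp1, Pkp2 and Dst), against 18.0%. H3K27me3 covered 72.6% and 93.4% of the Pkp1 window and 40.9% and 36.3% of that of Pkp2. It covered only 2.34% and 8.58% of the Dsp window and 0.691% and 4.35% of that of Dst. Of 15 genes of the cornified envelope, the protein shell of dead keratinocytes, 13 had no peak of any set, against 20.6% of all genes. All of the 13 but Tgm1 lie on chromosome 3, so they are not read as separate cases, and gene length was not matched. Tgm3 was touched by H3K27me3 in both replicates. Among 13 other intermediate filament genes, Vim, Nefh, Lmna, Lmnb2 and Bfsp1 had H3K4me3, H3K9ac and H3K27ac in both replicates, against 51.8%, 50.6% and 51.6% of all genes. H3K27me3 touched Des, Gfap, Nefl, Nes, Synm and Bfsp1 in both replicates, against 18.0%. Its cover of these windows ran from 3.67% and 7.12% for Bfsp1 to 83.8% and 71.9% for Nes.

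The labeled cell type was checked against marker genes. All 7 T lineage markers (Cd3e, Cd3g, Cd3d, Lck, Tcf7, Thy1 and Ptprc) were touched by H3K4me3, H3K9ac, H3K27ac and H3K36me2 in both replicates, and 6 of them by ATAC-seq in both. The shares of all protein-coding genes were 51.8%, 50.6%, 51.6%, 46.2% and 47.2%, in the same order. H3K27me3 touched Tcf7 in replicate 1 only. None of 6 epithelial markers (Epcam, Cdh1, Cldn4, Esrp1, Trp63 and Ovol1) was touched by an active mark. Other genes that act in epithelia were, since Grhl1, Grhl2, Foxn1, Dlx3 and Tfap2a had H3K4me3, H3K9ac and H3K27ac in both replicates. Cdh1 had an ATAC-seq peak in both replicates, Cldn4 and Ovol1 had H3K36me2 in replicate 1, and Cdh1 and Trp63 were touched by H3K27me3 in both replicates. The lists held 17519 to 46015 peaks each. Over all chromosomes the Jaccard index of the replicates was 0.922 for H3K4me3, 0.869 for H3K9ac, 0.865 for H3K27ac, 0.660 for ATAC-seq, 0.568 for H3K36me2 and 0.498 for H3K27me3. The lists give no score or read count, so the depth behind a peak is unknown, and a window without a peak may hold signal under the authors' threshold.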

How the data were processed

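Of the 15 samples, 12 have a peak list, and neither the input nor the RNA-seq libraries were used here. According to the methods and the submitters' processing notes, the authors aligned reads to GRCm38 with STAR 2.5, kept unique alignments, treated duplicates with Picard, and called H3K4me3, H3K9ac, H3K27ac and ATAC-seq peaks with MACS2 and H3K27me3 and H3K36me2 with Epic. The deposited lists give chromosome, start and end per replicate, with no score or count, so the depth is unknown and no interval that needs it was computed. The methods state that reads on the sex chromosomes were discarded, yet the lists hold peaks on chromosome X.

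The members and all gene lists were chosen with earlier results of these data known. Windows of the gene span plus 2 kb were intersected with each list (minimum overlap 1 bp) in Python 3.11.15 with numpy 2.4.6 and pandas 2.3.3, and the counting was tested on simulated intervals against bedtools 2.31.1. Figures were drawn with matplotlib 3.10.9. Adjacent windows overlap, so 1 peak can touch 2 genes, as at Krt78 and Krt8. Places with both broad marks are intersections of merged replicates. Genes were named when touched by an active mark or ATAC-seq peak or by both broad marks, when among the 3 highest in mean coverage by H3K27me3 or H3K36me2 in their set, when reference keratins of epithelia, or when inside or beside a cluster. Others, such as Krt9, Krt16, Krt17, Krt35 and Krt81, were named after their values were seen. No test was made. The alternatives were each replicate alone, either replicate, no flank or 5 kb flanks, an overlap of 200 bp, peak midpoints, peaks of at least 500 bp, at least 50% of the window covered, and whole clusters.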

Additional observations from a re-analysis of the deposited data

How the results depend on the processing

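Of 76 alternatives over 10 results, 63 gave values that stayed within 1.5 times the count or 1 SD of the value given. For coverage, a single replicate always lies within 1 SD of the mean of 2, so those alternatives could not have moved. The number of chromosome 16 genes touched stayed at 0 for every peak set in every alternative that counts genes, though intervals between these genes enter the whole-cluster coverage, and no alternative gave a place with both broad marks. Without flanks, H3K27ac touched 2 windows in place of 4 (without Krt222 and Krt8), the genes with any active mark fell to 3, and coverage was 63.8% for H3K27me3 and 2.24% for H3K36me2, where it had been 56.5% ± 1.72 and 1.49% ± 0.676 (SD, n = 2). The 5 kb flank gave 52.2% for H3K27me3, base pairs covered in both replicates gave 47.0%, and whole clusters gave 41.3% for H3K27me3 and 0.511% for H3K36me2. Counting only peaks whose midpoint lay inside the window left 18 windows with H3K27me3 in place of 58, of which 4 were on chromosome 15, 8 were type I keratins and 6 keratin-associated genes of chromosome 11, so the order of these sets turned round. H3K36me2 touched 4 windows in either replicate, adding Krt28 and Krtap4-9, and between 2 and 4 with 1 replicate left out; it covered at least 50% of 0 windows in both. With ATAC-seq peaks of at least 500 bp no window was left (0). With 1 replicate left out, H3K27me3 touched 62 to 64 windows. No paired analysis was possible because the results come from counts with no test, and the replicate numbers are shared between different marks and not between conditions. Depth limits what an empty window shows, since the lists hold no signal under the calling threshold.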

Other observations

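Outside the 3 clusters, 9 Krtap genes lie on other chromosomes, and H3K27me3 touched 5 of them in both replicates, against 18.0% of all protein-coding genes. These 5 were the Krtap5 genes of chromosome 7, Krtap5-1 to Krtap5-5, which encode ultra-high sulfur proteins of hair. Krtap28-13 on chromosome 1 was touched by H3K27me3 in replicate 1 only, and Krtap12-1 on chromosome 10 by H3K36me2 in both replicates. Krtap10-4 and Krtap10-10, also on chromosome 10, had no peak of any set. None of the 9 was touched by an active mark or an ATAC-seq peak. Of other genes in the length range of the chromosome 11 keratin-associated genes, each of these sets touched only 8.70% to 9.84% in both replicates.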
